A study of Mus musculus with 6 samples.

Results

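Keratin genes, here every gene of the deposited table whose symbol is Krt followed by digits only, were followed in mouse colon tissue after DSS (dextran sulfate sodium), given to mice as a chemical model of colitis because it damages the lining of the colon. There were 47 such genes among the 34745 in the table, and 30 of them had at least 1 read. RNA sequencing covered 3 libraries from TRPC-hepta knockout mice and 3 from TRPC-hepta control mice. By the series title the knockout mice lack all 7 TRPC proteins, which are calcium-permeable cation channels. All mice were age-matched males given DSS for 6 days before sacrifice. The sources used here do not state the age, the strain, the deleted parts of the genes or what the control mice carry beyond that name. They also do not say that each library came from its own animal, so the p-values cover the library-to-library spread, which may be technical. No mice without DSS were analysed here.

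Keratins are the intermediate filament proteins of epithelial cells. Each filament is built from pairs of an acidic type I and a basic type II keratin, and the pairs differ between epithelia. In the simple epithelium of the intestine the type II keratin is mainly Krt8, with Krt18, Krt19 and Krt20 as type I keratins, and mice without Krt8 are known to develop colitis. Krt17 and Krt16, together with Krt6a and Krt6b, are induced in skin by wounding and stress. Krt5 and Krt14 form the filaments of basal cells in squamous epithelium, Krt1 and Krt10 those of the layers above, and another set builds hair, nail and the inner root sheath. The 47 members lie in a pair of clusters, 25 genes on chromosome 11 (99232761 to 100269871, GRCm38) and 22 on chromosome 15 (101349571 to 102032026). The chromosome 15 cluster holds the 21 type II members and also Krt18, a type I gene. Krt8 is on the minus strand and Krt18 on the plus strand, with 23873 bases between their starts in the deposited coordinates.

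The promoters of the abundant simple epithelial keratins are shown because these genes supply almost all keratin reads. The sequences are from RefSeq on GRCm38.p6 (34 of the 47 members had an entry), 5′ to 3′, with the 90 bases before RefSeq's gene start and the first 30 bases from it, and with the letters TATAAA in capitals. RefSeq's start differs from the deposited one for Krt7 and Krt20. Krt8 is at chr15:102004313-102004432 on the minus strand, Krt18 at chr15:102028126-102028245 on the plus strand, Krt20 at chr11:99438124-99438243 on the minus strand and Krt7 at chr15:101412313-101412432 on the plus strand. Krt17 and Krt19 are named only.
Krt8: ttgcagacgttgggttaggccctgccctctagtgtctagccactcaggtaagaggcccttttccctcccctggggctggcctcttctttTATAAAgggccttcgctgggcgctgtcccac
Krt18: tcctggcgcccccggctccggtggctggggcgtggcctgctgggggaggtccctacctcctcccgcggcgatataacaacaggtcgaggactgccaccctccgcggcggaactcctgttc
Krt20: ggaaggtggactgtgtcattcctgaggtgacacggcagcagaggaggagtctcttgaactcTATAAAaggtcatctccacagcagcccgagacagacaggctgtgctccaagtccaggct
Krt7: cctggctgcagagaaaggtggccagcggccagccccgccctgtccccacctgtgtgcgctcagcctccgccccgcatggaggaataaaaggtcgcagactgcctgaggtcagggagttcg

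TATAAA, searched on both strands, was in the Krt8 window, from position -1 relative to the start, and in the Krt20 window, from position -29. It was not in those of Krt18 and Krt7. Over all 32851 RefSeq promoters the same window held it in 5.95%. GGGCGG, the core of the GC box, was in the Krt7 window and in 26.4% of all promoters. TGANTCA, the AP-1 motif, was in none of these windows and in 3.13% of all promoters. A match is a description of letters and not a measured site.

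The libraries were not alike. They held 13816295, 14529028 and 15505327 counted reads in the knockout and 16819662, 17584992 and 16864863 in the control. Log2(CPM + 1), with CPM as counts scaled to library size, correlated across genes at 0.89 between knockout replicates 1 and 2 and at 0.961 and 0.962 between each of these and replicate 3, against 0.978 to 0.983 among control libraries. These are correlations across genes, which are not independent replicates. Knockout replicate 3 was intermediate between the other knockout libraries in 71.9% of all genes tested and in 13 of 16 keratins past the filter. It was so in 92.8% of the 5321 genes that differed at least 2-fold between those libraries, and in 8 of 8 such keratins. Choosing genes by that difference raises the share by itself. Whether knockout replicate 3 shares material with the other knockout libraries was not tested. If it did, the knockout would hold fewer than 3 independent samples, and the SDs and p-values given with n = 3 would be too small. Colon epithelium markers were low in knockout replicate 1, with the exception of Slc26a3. Their summed FPKM (fragments per kilobase of transcript, scaled to library size) over 16 genes ran from 2897 there to 8350 in the knockout libraries and from 6498 to 7801 in the control libraries. Among them, Epcam, an epithelial adhesion protein, stood at 540, 888.2 and 725.4 FPKM in knockout replicates 1, 2 and 3 and at 995.8, 986.4 and 914.9 FPKM in control replicates 1, 2 and 3. Car1, a carbonic anhydrase of colonocytes, stood at 383.7, 2919 and 1916 FPKM in the knockout and at 1829, 2489 and 3453 FPKM in the control. Slc26a3 stood at 66.7, 45 and 57.1 FPKM in the knockout and at 175.6, 132.5 and 62.4 FPKM in the control. Of the 16 markers, 0 were past the threshold used throughout, an edgeR adjusted p under 0.05 (quasi-likelihood test, adjusted over all genes tested after Benjamini-Hochberg) (unadjusted p under 0.05 in 2, called by DESeq2 in 1 and by limma in 0). Over all genes tested, unadjusted p by edgeR was under 0.05 in 16%, and DESeq2 called 7.34% of the genes it tested. Of 8 smooth muscle markers, 3 were past the threshold, all lower in the knockout, against 0.67% of all genes tested. Unadjusted p was under 0.05 in 8, against 16% of all genes tested. DESeq2 called 8, against 2.83% called lower among the genes it tested. Limma on log2(FPKM + 1) called 2, against 92 called lower among all 15819 genes tested. In bulk tissue, fewer cells of a type and less RNA per cell cannot be told apart.

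Simple epithelial keratins made up nearly all of the keratin pool of every library. The 5 members Krt7, Krt8, Krt18, Krt19 and Krt20 held 99.65% of all reads counted in keratins, and between 99.3% and 99.8% of the summed keratin FPKM of each library. Keratins took 0.469%, 0.907% and 0.707% of all counted reads in knockout replicates 1, 2 and 3, and 0.872%, 0.943% and 0.765% in control replicates 1, 2 and 3. Knockout replicate 1 was thus the lowest of the 6 libraries, and the other knockout libraries lay within or below the control range.

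Krt8, the type II partner of the intestinal type I keratins, was the most abundant, at 1144, 2257 and 1767 FPKM in the knockout and 2234, 2396 and 1986 FPKM in the control. Only knockout replicates 1 and 3 lay below every control library. The means were 1723 ± 558 FPKM in the knockout and 2205 ± 206 FPKM in the control (SD, n = 3 each), and the log2 fold change of -0.40 ± 0.33 (SE) was not past the threshold (edgeR adjusted p = 0.626). It was -0.15 without knockout replicate 1 and -0.73 without knockout replicate 2. Krt8 shares 26.9% of the 50-base windows of its annotated transcripts with the pseudogene Krt8-ps. The sources used here do not say how such reads were assigned.

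Krt19, a short type I keratin found in crypt and surface cells, stood at 596.6, 1171 and 885.5 FPKM in the knockout and 904.6, 1057 and 905.8 FPKM in the control. Knockout replicate 2 was the highest and knockout replicate 1 the lowest of the 6. The log2 fold change was -0.16 ± 0.32 (SE, edgeR adjusted p = 0.859), and its sign turned to 0.09 without knockout replicate 1. Krt20, a type I keratin of differentiated surface colonocytes, stood at 535.6, 906.8 and 750.1 FPKM in the knockout and 1082, 1054 and 755.4 FPKM in the control. The groups overlapped, and the log2 fold change of -0.45 ± 0.30 (SE) was not past the threshold (edgeR adjusted p = 0.53).

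Krt18, the classic type I partner of Krt8, was the only one of the 5 whose groups did not overlap, a share no higher than the 22.1% of all genes tested. It stood at 96.5, 217.3 and 164.8 FPKM in knockout replicates 1, 2 and 3 and at 278.5, 338.9 and 240.9 FPKM in control replicates 1, 2 and 3. All 3 knockout libraries were below the lowest control library, and the means were 159.5 ± 60.6 and 286.1 ± 49.4 FPKM (SD, n = 3 each). The log2 fold change of -0.89 ± 0.35 (SE) had an unadjusted p of 0.0405 and was not past the threshold (edgeR adjusted p = 0.282). It was past it only without knockout replicate 2, at -1.26 (adjusted p = 0.0433), where 11.2% of all genes tested were, 8.07% higher and 3.14% lower.

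Krt7, a type II keratin of ductal and glandular epithelia, varied most of the 5 among the knockout libraries. It stood at 3.27, 21.8 and 13.6 FPKM in knockout replicates 1, 2 and 3, a 6.66-fold span, and at 8.68, 12.4 and 15.1 FPKM in control replicates 1, 2 and 3, a 1.74-fold span. The knockout libraries included both the lowest and the highest of the 6. The log2 fold change of 0.08 ± 0.64 (SE) was not past the threshold (edgeR adjusted p = 0.971) and turned negative under 5 of 13 alternatives. The FPKM of Krt7 corresponds to a length of 8594 bases, while its longest annotated coding transcript in GENCODE M21 has 4094 bases, so its level per length is understated relative to Krt8 (1805 against 1958 bases) or Krt18 (1400 against 1437 bases).

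As a group, 0 of the 5 simple epithelial members were past the threshold by edgeR (unadjusted p under 0.05 in 1, called by DESeq2 in 0 and by limma in 0). Over all 15819 genes tested, 278 were past it, or 1.76%, with 1.09% higher and 0.67% lower in the knockout. DESeq2 called 7.34% of the genes it tested, 4.51% higher and 2.83% lower. Limma on log2(FPKM + 1) called 149 of the 15819 genes higher and 92 lower. Unadjusted p by edgeR was under 0.05 in 16% of all genes tested. The summed FPKM of the 5 keratins was 2376, 4574 and 3581 in the knockout and 4507, 4858 and 3903 in the control. The difference in mean log2 sum was -0.38, with p = 0.3 in a two-sided exact permutation test over the 6 libraries, for which 0.1 is the smallest p possible. The difference was -0.12 without knockout replicate 1 and -0.59 without knockout replicate 2.

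**Figure D1:**
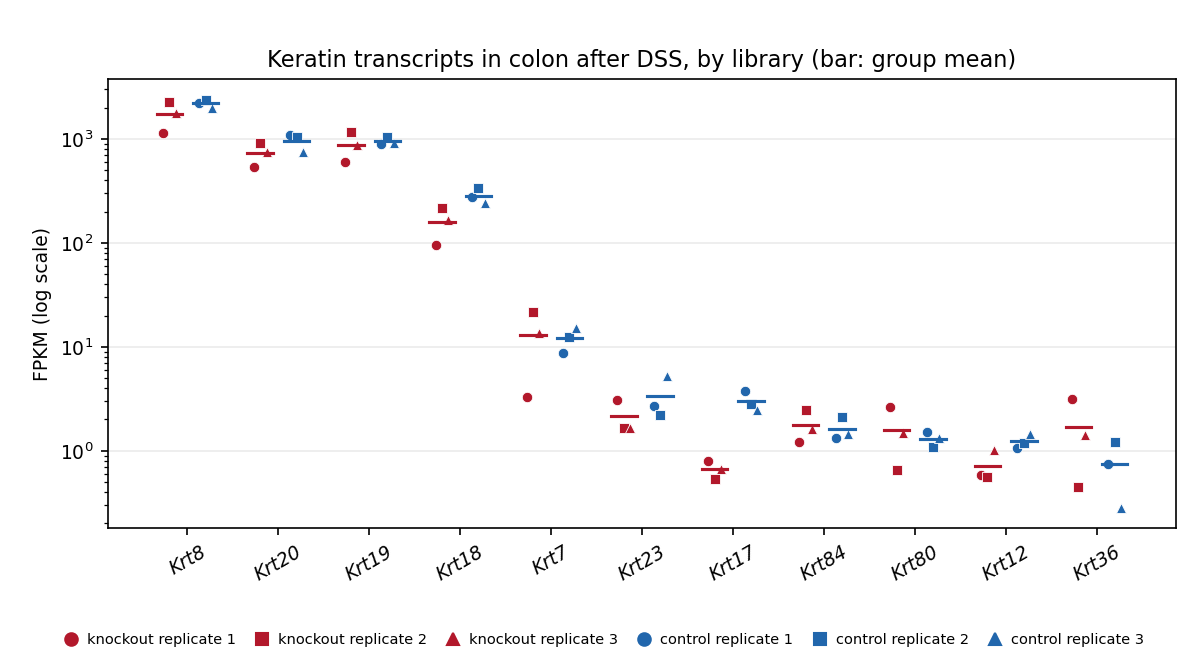
FPKM on a log axis of the 11 keratins with a group mean of at least 1 FPKM or past the threshold, with the knockout libraries left of the control libraries, 1 point per library and a bar at the group mean. Krt17 and Krt18 are separated between groups at this scale along with Krt12, while Krt7 in knockout replicate 1 lies at 3.27 FPKM, far below its 21.8 FPKM in knockout replicate 2.

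Ratios within a library do not move with the library scaling. Summed simple epithelial keratins stood to Epcam at 4.4, 5.15 and 4.94 in the knockout and at 4.53, 4.93 and 4.27 in the control, and the groups overlapped (two-sided exact permutation test, p = 0.4). Knockout replicate 1, the lowest in keratins, was also the lowest in Epcam. The ratio of Krt18 to Krt8, by contrast, stood at 0.0843, 0.0963 and 0.0933 in knockout replicates 1, 2 and 3 and at 0.125, 0.142 and 0.121 in control replicates 1, 2 and 3. The ranges did not overlap, although Krt8 itself spanned 1.97-fold among the knockout libraries. Of 15604 genes, 2.08% had a ratio to Krt8 that was lower in every knockout library than in every control library, and 20.3% had one that did not overlap in either direction.

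The ratios that were tested were mostly set to Krt18. Krt8 stood at 10.99 ± 0.77 times Krt18 in the knockout and 7.78 ± 0.62 times in the control (SD, n = 3 each). Krt19 stood at 5.65 ± 0.46 and 3.38 ± 0.34 times Krt18, and Krt20 at 4.76 ± 0.71 and 3.38 ± 0.44 times, in the knockout and in the control. In each of these 3 ratios the groups did not overlap, as in 50.8% of all genes set to Krt18. Each had p = 0.1 in a two-sided exact permutation test, the smallest possible, and an adjusted p of 0.167 over the 5 ratios tested, so none was past the threshold. The ratio of Krt7 to Krt18 overlapped (exact permutation p = 0.3). Relative to Krt8, Krt19 stood at 0.521, 0.519 and 0.501 in the knockout and 0.405, 0.441 and 0.456 in the control without overlap, while Krt20 overlapped at 0.468, 0.402 and 0.424 in the knockout and 0.484, 0.44 and 0.38 in the control. The ratio of Krt18 to Krt8 is the inverse of the tested ratio of Krt8 to Krt18 and is not a further result. The ratios of Krt19 and Krt20 to Krt8 were added after the values were seen and were not tested.

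Type I and type II keratins were close to balanced on the FPKM scale. The summed type I FPKM stood at 1.08, 1.01 and 1.01 times the summed type II FPKM in knockout replicates 1, 2 and 3 and at 1.01, 1.02 and 0.955 times in control replicates 1, 2 and 3. The level of this ratio depends on the gene lengths used. Krt19, for example, was scaled to 2334 bases, and its longest coding transcript has 1576. With the longest coding transcripts of the 5 simple epithelial members the ratio averaged 1.37 in the knockout and 1.29 in the control. Within the type I share, Krt18 held 4.03%, 4.74% and 4.59% of all keratin FPKM in the knockout and 6.16%, 6.96% and 6.15% in the control. Krt19 held 24.9%, 25.6% and 24.7% in the knockout and 20.0%, 21.7% and 23.1% in the control. Krt8 held 47.8% to 49.2% in the knockout and 49.2% to 50.7% in the control.

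**Figure D2:**
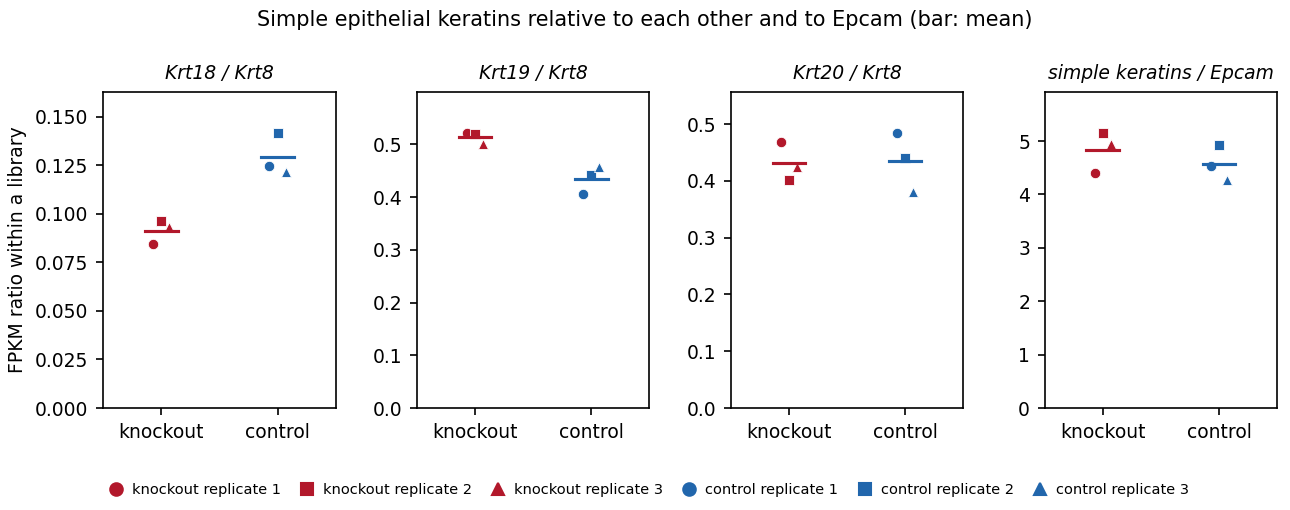
FPKM ratios within each library, with the knockout left of the control, 1 point per library and a bar at the mean, on axes that start at 0. Krt18 relative to Krt8 lies below 0.1 in the 3 knockout libraries and at 0.121 or above in the control libraries, and the sum of simple epithelial keratins relative to Epcam overlaps between groups.

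Of the stress keratins, Krt17 was lower in the knockout and Krt16 had no reads. Krt17 (chromosome 11, 100256217 to 100261029, minus strand) stood at 0.793, 0.532 and 0.665 FPKM in knockout replicates 1, 2 and 3, from 17, 12 and 16 reads. In control replicates 1, 2 and 3 it stood at 3.79, 2.82 and 2.45 FPKM, from 99, 77 and 64 reads. Every control library was more than 3 times above every knockout library. Krt17 fell to 0.664 ± 0.130 FPKM in the knockout, against 3.02 ± 0.70 FPKM in the control (SD, n = 3 each), a log2 fold change of -2.26 ± 0.32 (SE) or 4.8-fold, which was past the threshold (edgeR adjusted p = 0.0295). It was the 52nd most negative of 106 genes called lower. DESeq2 called it too, as did limma on log2(FPKM + 1), with a log2 fold change of -1.26 on that scale. The call was lost without knockout replicate 3 (adjusted p = 0.177) and without control replicate 1, 2 or 3 (0.14, 0.129 and 0.104), with log2 fold changes of -2.40 to -2.06 over all libraries left out. Without knockout replicate 3, 0.093% of all genes tested were called, 0.0372% higher and 0.0558% lower. Krt17 shares 60 of its 1502 windows of 50 bases with other genes, mainly Krt14.

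Among the 8 smooth muscle markers, the fall of Krt17 ran most closely beside that of Des and Actg2. Desmin, the intermediate filament of muscle (Des), stood at 92.9, 57.6 and 68.5 FPKM in the knockout and at 354.9, 339 and 251 FPKM in the control, with a log2 fold change of -2.20 ± 0.23 (SE, edgeR adjusted p = 0.0127). Actg2, the enteric smooth muscle actin, stood at 94.1, 65.3 and 77.7 FPKM in the knockout and at 433, 373.9 and 272.5 FPKM in the control (edgeR log2 fold change -2.27, adjusted p = 0.0118). The 6 libraries had the same order from highest to lowest in Krt17, Des and Actg2. In each of these genes every control library was above every knockout library, so only the order within a group could differ. The knockout values of Krt17 came from 17, 12 and 16 reads, so counting error could change their order and the ratios to Krt17. Krt17 stood to Actg2 at 0.00843, 0.00815 and 0.00856 in the knockout and at 0.00877, 0.00755 and 0.00898 in the control, so that the highest was 1.19 times the lowest.

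Of 15604 genes with a ratio to Krt17 in every library, the 3 with the smallest span from highest to lowest were Pln, Actg2 and Des. Pln, phospholamban, which restrains calcium uptake in muscle, stood at 5.72, 3.75 and 5.23 FPKM in the knockout and 29.3, 18.9 and 18.8 FPKM in the control (edgeR log2 fold change -2.28, adjusted p = 0.0136). Its ratio to Krt17 spanned 1.17-fold, and that of Des 1.28-fold. These genes were singled out after their values were seen, over 6 libraries whose groups differ in each of them, and no test was made. The median span over all genes was 8.28-fold, and that of Krt8 was 7.2-fold. Over the 8 smooth muscle markers the span was 1.19-fold to 2.56-fold. Apart from Actg2 and Des, it was 2.04-fold (Myh11) or more in every marker. For 7 of the 8 markers the ratio to Krt17 overlapped between groups, and for Acta2 it did not. All 8 were lower in the knockout, as Krt17 was (edgeR log2 fold changes of -2.27 to -1.47), which by itself favours such an overlap. The share of all genes that overlapped in this ratio was not counted. The summed FPKM of these markers was 576.6 to 1451 in the knockout and 2587 to 3740 in the control, with Myh11, smooth muscle myosin, also past the threshold (log2 fold change -2.12, edgeR adjusted p = 0.0497). The Myh11 call was lost with RLE size factors (0.0512), among genes with a mean of at least 0.5 FPKM (0.0574) and by limma on log2(FPKM + 1) and log2(FPKM + 0.1) (adjusted p = 0.0665 and 0.0714). Without knockout replicate 3 the edgeR adjusted p of Actg2, Des, Pln and Myh11 was 0.116, 0.128, 0.115 and 0.253, so each call was lost, as it was without control replicate 2 (0.0761, 0.0829, 0.0658 and 0.194). Without control replicate 1 it was lost for Actg2, Des and Myh11 (0.0534, 0.078 and 0.191), and without control replicate 3 for Pln and Myh11 (0.0598 and 0.141). The log2 fold changes of the 4 genes with 1 library left out stayed between -2.51 and -1.84. The part of smooth muscle in the lower Krt17 was not tested. Relative to Epcam, Krt17 did not overlap, at 0.00147, 0.0006 and 0.000917 in the knockout and 0.00381, 0.00286 and 0.00267 in the control. The share of all genes without overlap relative to Epcam was not counted either.

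**Figure D3:**
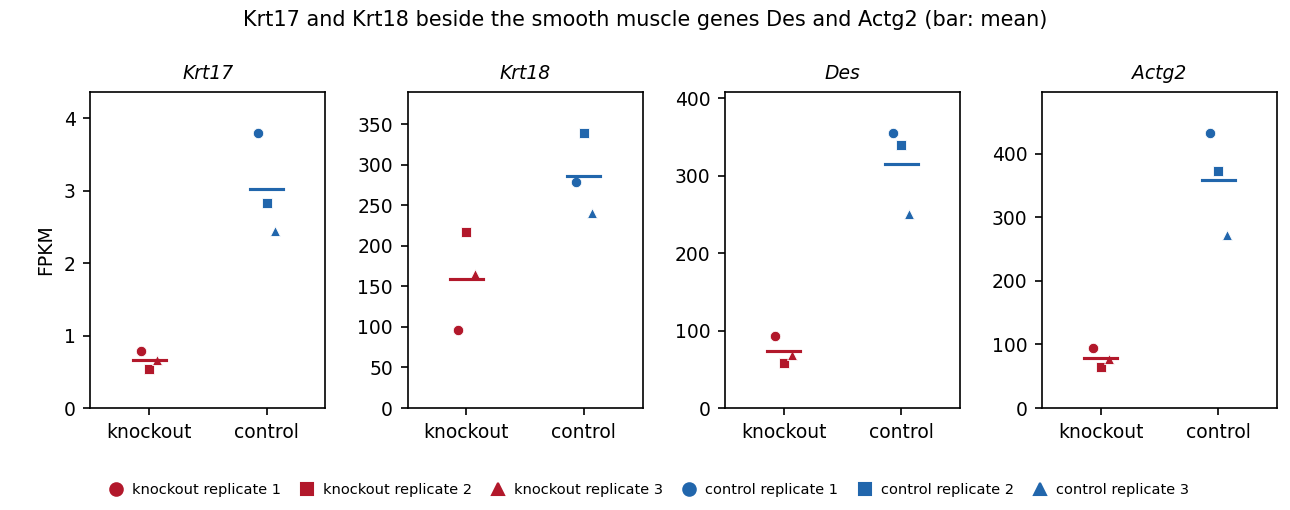
FPKM of Krt17, Krt18, Des and Actg2, with the knockout left of the control, 1 point per library and a bar at the mean, on axes that start at 0. Krt17, Des and Actg2 show the same order of the 6 libraries, while Krt18 is highest in replicate 2 of each group. The knockout libraries lie at 0.532 to 0.793 FPKM of Krt17, from 12 to 17 reads.

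The stress keratins whose symbols end in a letter fall outside the members. Krt6a was listed at 0.0963, 0.061 and 0 FPKM in the knockout and at 0 in the control. Krt6b stood at 0.358, 0.247 and 0.0869 FPKM in the knockout and at 0, 0.153 and 0 FPKM in the control. With the hair keratins Krt33a and Krt33b, which had no reads, the 4 genes had 27 reads over the knockout and 6 over the control libraries, and 0 passed the filter on low counts.

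Squamous keratins were at the edge of detection. Of 15 members 3 had no reads, 12 had some and 5 passed the filter, with at most 56 reads in a library and 303 reads over the knockout against 305 over the control libraries. These reads are not scaled to depth, and every knockout library held fewer counted reads than every control library. No squamous keratin was past the threshold by edgeR (unadjusted p under 0.05 in 1, called by DESeq2 in 0 and by limma in 0). Krt12, known from corneal epithelium, stood at 0.586, 0.557 and 1.01 FPKM in the knockout and 1.06, 1.2 and 1.44 FPKM in the control, a small difference without overlap (log2 fold change -0.85 ± 0.37, edgeR adjusted p = 0.328). Krt78, a type II keratin of stratified epithelium, stood at 1.18, 0.12 and 0.413 FPKM in the knockout and at 0.208, 0.0497 and 0.0518 FPKM in the control, with 56 of its 102 reads in knockout replicate 1 (log2 fold change 2.31 ± 0.92, edgeR adjusted p = 0.285). That value was 1.31 without knockout replicate 1 and 0.46 by limma on log2(FPKM + 1). Krt15, a keratin of basal cells, was at 0.172 to 0.262 FPKM in the knockout and 0.311 to 0.677 FPKM in the control, also without overlap (edgeR adjusted p = 0.318). Krt10 and Krt14 had log2 fold changes of 0.24 and 0.41 (edgeR adjusted p = 0.803 and 0.817). Krt5, the basal partner of Krt14, had 16 reads in all. Krt4 had 1 read and Krt13, its mucosal partner, 15. Together with Krt17 and Krt18, 4 of the 16 members past the filter had groups that did not overlap, against 22.1% of all genes tested.

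Markers of squamous epithelium were as sparse in their defining members. Of 16 such genes, 4 had no reads, among them Ivl (involucrin) and Dsg1a (a desmoglein), 5 passed the filter, and 0 were past the threshold by edgeR (unadjusted p under 0.05 in 0, called by DESeq2 in 0 and by limma in 0). Trp63, the transcription factor that defines basal squamous cells, was listed at 0 in the control and at 0.0110 to 0.0308 FPKM in the knockout. The summed level was 27.8 to 78.5 FPKM in the knockout and 22.8 to 48.9 FPKM in the control, most of it Anxa8, an annexin, at 58.6, 2.96 and 29.3 FPKM in the knockout and 12, 25.9 and 3.38 FPKM in the control, and Serpinb5, a serpin, at 10.3 to 20.7 FPKM in the knockout and 14.6 to 17.6 FPKM in the control. Their part in the squamous keratin values was not tested.

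Among the 21 keratins of hair and inner root sheath 13 had no reads, and 2 passed the filter. Krt84, a type II hair keratin, stood at 1.21, 2.46 and 1.63 FPKM in the knockout and at 1.34, 2.1 and 1.45 FPKM in the control (log2 fold change 0.07 ± 0.39, edgeR adjusted p = 0.953). Krt36, a type I hair keratin, stood at 3.16, 0.453 and 1.43 FPKM in the knockout and 0.747, 1.23 and 0.284 FPKM in the control (1.03 ± 0.75, edgeR adjusted p = 0.57). Knockout replicate 1 was the highest library in Krt36 and the lowest in Krt84, and neither gene separated the groups. The group count past the threshold was 0 by edgeR (unadjusted p under 0.05 in 0, called by DESeq2 in 0 and by limma in 0). Hair shaft markers gave little signal, with 6 of 9 without reads, among them 4 hair keratin-associated proteins and Hoxc13. Lef1, the most abundant, stood at 0.0521 to 0.172 FPKM in the knockout and 0.0386 to 0.0962 FPKM in the control, and Padi3 was listed at 0 in the knockout and at 0 to 0.0465 FPKM in the control.

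Of the 4 remaining members, 3 passed the filter and 0 were past the threshold by edgeR (unadjusted p under 0.05 in 0, called by DESeq2 in 0 and by limma in 0). Krt23, a type I keratin, stood at 3.1, 1.67 and 1.65 FPKM in the knockout and 2.7, 2.22 and 5.19 FPKM in the control (log2 fold change -0.75 ± 0.42, edgeR adjusted p = 0.454). Krt80, a type II keratin found near desmosomes, stood at 2.65, 0.66 and 1.49 FPKM in the knockout and 1.51, 1.09 and 1.34 FPKM in the control (0.17 ± 0.47, edgeR adjusted p = 0.899). The knockout libraries again held both ends of its range. Krt222 had 0.499 to 1.33 FPKM in the knockout and 0.455 to 0.825 FPKM in the control, and Krt42 had 2 reads in all.

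Over all groups, 16 of 47 members passed the filter, 8 with positive and 8 with negative log2 fold changes and a median of -0.04, against a median of 0.01 over all genes tested. One of them, Krt17, was called lower and 0 were called higher (edgeR; 3 at an unadjusted p under 0.05, against 16% of all genes tested). The other 31 comprise 17 members without reads and 14 with 1 to 47 reads. A library with 0 reads of a gene allows up to 0.171 to 0.217 CPM, before TMM scaling (3 counts, counting error only).

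**Figure D4:**
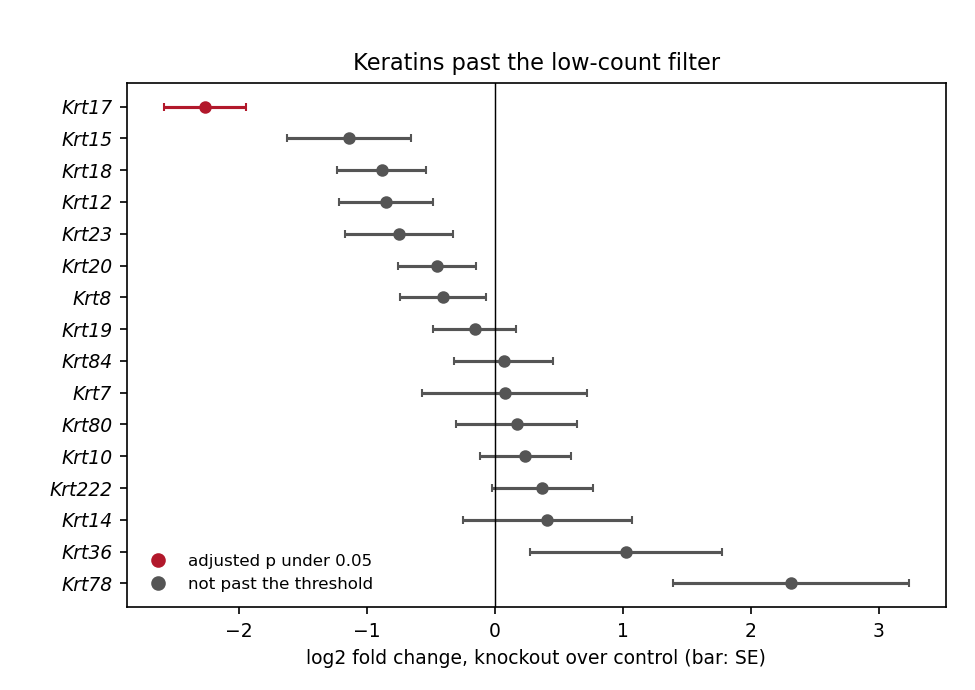
Log2 fold change of knockout over control with its SE for the 16 keratins past the filter on low counts, ordered by value. Krt17, at -2.26, is past the threshold, Krt18 lies at -0.89, and Krt78, at 2.31, has the widest SE.

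None of the listed genes that anchor keratin filaments was past the threshold by edgeR. Of 15 desmosome genes 8 passed the filter, all with negative log2 fold changes of -0.66 to -0.04 (median -0.25), against 51.6% positive over all genes tested. Of these desmosome genes, 0 were past the threshold by edgeR (unadjusted p under 0.05 in 1, called by DESeq2 in 0 and by limma in 0). Desmoplakin (Dsp), which ties keratin to the desmosome, stood at 39.3, 95.6 and 72.7 FPKM in the knockout and at 76.4, 89.2 and 85.3 FPKM in the control. Perp, a desmosome membrane protein, stood at 94.9, 173.2 and 137.3 FPKM in the knockout and at 176.5, 179.5 and 159.8 FPKM in the control. Knockout replicate 1 was the lowest of the 6 libraries in both, as in Krt8. Of 9 hemidesmosome and laminin genes, all passed the filter with a median of -0.17, and 0 were past the threshold by edgeR (unadjusted p under 0.05 in 2, called by DESeq2 in 1 and by limma in 0). Over all genes tested, unadjusted p by edgeR was under 0.05 in 16%, and DESeq2 called 7.34% of the genes it tested. Cd151, a tetraspanin of hemidesmosomes, stood at 58.7 to 71.5 FPKM in the knockout and 58.9 to 60.6 FPKM in the control, and plectin (Plec), a cytolinker, at 18.5 to 31.1 and 20.2 to 43.7 FPKM in the knockout and in the control. Of the 6 keratin-binding cytolinkers past the filter 0 were past the threshold by edgeR (unadjusted p under 0.05 in 0, called by DESeq2 in 0 and by limma in 0). The most abundant were Fam83h, at 20 to 30.3 FPKM in the knockout and 24.9 to 32.9 FPKM in the control, and envoplakin (Evpl), at 9.44 to 16.2 and 9.6 to 13.4 FPKM.

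Other intermediate filament genes included both directions. Of 15 past the filter Des fell, as above, and Bfsp1, known as the lens filament protein filensin, rose to 12.7, 6.32 and 9.29 FPKM in the knockout, against 2.26, 0.893 and 0.91 FPKM in the control (log2 fold change 2.70, edgeR adjusted p = 0.0398). These 2 calls compare with 1.76% of all genes tested. Unadjusted p was under 0.05 in 6 of the list, against 16% of all genes tested. DESeq2 called 5 of the list, against 7.34% of the genes it tested. Limma on log2(FPKM + 1) called 2, against 149 higher and 92 lower among all 15819 genes tested. The groups of Bfsp1 did not overlap, and its call was lost without knockout replicate 1 or 3 or control replicate 2 or 3 (edgeR adjusted p = 0.0517, 0.178, 0.18 and 0.149). Of 13 cornified envelope genes, which cross-link the surface of squamous cells, 2 passed the filter and 0 were past the threshold by edgeR (unadjusted p under 0.05 in 1, called by DESeq2 in 1 and by limma in 0). Tgm3, a transglutaminase, spanned 145.2, 1.23 and 65.4 FPKM in the knockout and 32.4, 21.9 and 2.57 FPKM in the control (edgeR unadjusted p = 0.256). The gene with unadjusted p under 0.05 was Tgm1, at 3.93, 0.531 and 2.09 FPKM in the knockout and 0.0764, 0.457 and 0.019 FPKM in the control. Its groups did not overlap, with 4, 25 and 1 reads in the control (log2 fold change 3.42 ± 1.06, SE, edgeR unadjusted p = 0.0154, adjusted p = 0.179). Casp14, a caspase of cornifying cells that did not pass the filter, was at 5.28, 0 and 3.02 FPKM in the knockout and listed at 0 in the control. Of 14 transcription factors past the filter, 10 had negative fold changes and 0 were past the threshold by edgeR (unadjusted p under 0.05 in 2, called by DESeq2 in 1 and by limma in 0). Over all genes tested, 51.6% of log2 fold changes were positive. Elf3, an epithelial ETS factor, stood at 71.3, 178.6 and 139.6 FPKM in the knockout and 188.6, 189.2 and 104.7 FPKM in the control. Klf4, a factor of surface epithelium, stood at 84.7, 135.6 and 114.3 FPKM in the knockout and 147, 150.1 and 124.3 FPKM in the control.

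Markers of other keratin-bearing cells gave values beside these. Mesothelium, which covers the outer colon and carries Krt7, Krt8, Krt18 and Krt19, had a summed level over 8 markers of 0.722 to 4.79 FPKM in the knockout and 2.42 to 6.95 FPKM in the control. Its marker Msln stood at 1.61, 0.0651 and 1.71 FPKM in the knockout and 1.91, 1.34 and 1.49 FPKM in the control, lowest in knockout replicate 2, where Krt7 was highest. Upk1b, shared with urothelium, stood at 0.389 to 1.31 FPKM in the knockout and 0.322 to 1.38 FPKM in the control. The urothelial genes Upk2 and Upk3a were at or near 0, while Upk1a stood at 1.49, 6.42 and 5.28 FPKM in the knockout and 6.36, 6.74 and 4.4 FPKM in the control. Past the threshold by edgeR were 0 mesothelial and 0 urothelial markers (unadjusted p under 0.05 in 0 and 0, called by DESeq2 in 0 and 0 and by limma in 0 and 0). The part of these cells in the keratin values was not tested.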

How the data were processed

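Total RNA of flash-frozen colon was made into Illumina libraries, per the labels' protocols. The deposited table gives, per the file headers, whole read counts and FPKM for each library, with 3 libraries per group, although the series' design text speaks of duplicates. Tools in the submitters' processing notes, listed with no role, are edgeR, StringTie 1.3.0 and HISAT2 2.0.4. As builds these notes list mm8 and GRCh38. Deposited coordinates match another: of 34267 gene identifiers found in GENCODE M21 (GRCm38), 80.8% had the same start and end. They are given as deposited. Strand and shared reads are not described in the sources used here.

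Counts were tested with edgeR 4.0.16 (TMM, its own low-count filter, quasi-likelihood, two-sided, R 4.3.3). CPM are counts after TMM scaling. FPKM are the deposited values, and levels between genes are compared only in FPKM. Lengths behind FPKM were derived as counts over FPKM and library totals. Alternatives were DESeq2 1.42.0, limma 3.58.1 on log2(FPKM + 1) and log2(FPKM + 0.1), RLE factors, no filter, a mean of at least 0.5 FPKM, a replicate block and each library left out. Shared 50-base windows came from GENCODE M21 transcripts. The edgeR script was tested on simulated data with 3 libraries against 3. It called 55% of 160 genes changed 2-fold and 100% of 159 changed 4-fold, and 3.8% of its calls were false. The simulation used 1 fixed dispersion and no differences like those among the knockout libraries, so these shares need not hold here.

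The members, lists and tests were chosen with earlier results of these data known. By rule, members with a group mean of at least 1 FPKM or past the threshold are given library by library. Of each other list, up to 4 genes past the threshold are named, or otherwise the 2 most abundant. Other names were chosen after their values were seen. The tuft cell marker list is not reported here.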

Additional observations from a re-analysis of the deposited data

How the results depend on the processing

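The count of genes called in the whole table depended on the test and on single libraries. It was 172 higher and 106 lower, 862 and 540 with DESeq2, and 4 and 5 with a replicate block. Leaving out 1 library gave 6 to 1314 higher and 9 to 511 lower. Keratins called lower numbered 1, but 0 with the replicate block and 0 to 2 with 1 library left out. Krt17 kept its sign in all 13 alternatives, with a log2 fold change of -2.25 and no call under the replicate block (adjusted p = 0.121), and -2.40 to -2.06 with 1 library left out. With limma at the pseudocounts 1 and 0.1 it was -1.26 and -2.02. The block also ended the calls of Actg2, Des, Pln, Myh11 and Bfsp1 (adjusted p = 0.071, 0.0781, 0.0664, 0.122 and 0.0674). Whether the replicate numbers pair the samples was not settled. Deviations from the group means correlated at 0.054, -0.172 and 0.003 in same-numbered libraries and at -0.202 to 0.196 in the other pairs. With 3 libraries per group these correlations cannot exclude a pairing. Krt7 turned to -0.19 and -0.24 with limma at the pseudocounts 1 and 0.1 and to -0.31 under the block. With 1 library left out, Krt7 ran from -0.63 to 0.54, Krt84 from -0.33 to 0.31, Krt80 from -0.33 to 0.50, Krt19 from -0.495 to 0.091 and Krt14 from -0.12 to 0.80. Without a change of sign, Krt8 ran from -0.73 to -0.15, Krt20 from -0.72 to -0.24, Krt18 from -1.26 to -0.60, Krt78 from 1.31 to 3.30 and the log2 difference of the summed simple epithelial keratins from -0.59 to -0.12. The ratio of Krt8 to Krt18 kept a log2 difference of 0.43 to 0.54. The coding-transcript lengths, chosen after seeing the data, moved the type I to type II ratio to 1.37 in the knockout and 1.29 in the control. The cause of the shifts in calls and signs was not tested.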
